A study of Mus musculus with 19 samples.

Results

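Transcript levels of 10 genes of sphingosine 1-phosphate (S1P) and lysophosphatidate (LPA) signaling were examined in astrocytes sorted from the mouse hippocampus. They were the S1P receptors *S1pr1*, *S1pr2*, *S1pr3* and *S1pr5*, the sphingosine kinases *Sphk1* and *Sphk2*, the S1P lyase *Sgpl1*, the S1P transporter *Spns2*, and the LPA receptors *Lpar1* and *Lpar6*. These genes were chosen by symbol, with earlier results of these data in view, and are 10 of the 60567 entries listed by the authors. *Sphk1* stood on 2 entries, of which the one with the higher total level was used. Because of how they were chosen, *p* values for these genes describe these samples and are not independent evidence.

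All mice were 9 month-old C57bl6 males, and all had received an adeno-associated vector (AAV) with GFP under the astrocytic gfaABC1D promoter in the hippocampal CA1 region at 3 months of age. Wild-type mice with GFP alone (WT-GFP, n = 7 samples), APP/PS1dE9 mice with GFP alone (APP-GFP, n = 4) and APP/PS1dE9 mice with both GFP and the JAK2-STAT3 inhibitor SOCS3 (APP-SOCS3, n = 5) were compared, at the same total viral load. APP/PS1dE9 mice are a transgenic model of amyloid deposition. Cells were dissociated, depleted of myelin and sorted by FACS, and GFP- cells of the WT-GFP mice (n = 3) were sequenced as well. These GFP- cells were a mixture that included non-infected astrocytes, so that they were not a pure population of other cells. The study counts the astrocyte samples of each group as mice, although the hippocampi of a mouse were sorted separately. Which mice gave the GFP- samples is not stated, so that they may share mice with WT-GFP astrocyte samples.

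Samples held 19331876 to 32621917 reads on genes, and at least 1 read was found on 15575 to 26757 entries in GFP+ samples and on 30807 to 31897 entries in GFP- samples. Values are normalized levels, that is reads divided by a size factor of each sample. Fold changes were fitted with limma as differences of mean log2(level + 1). The added 1 shrinks ratios of low levels, whereas samples at 0 can make a fitted fold change larger than the ratio of mean levels. Genes were called with the thresholds of the study, a 1.5-fold difference and an unadjusted significance level of 0.05. As a check of the labels, *Socs3* had 834 ± 269 (SD, n = 7) in WT-GFP, 1079 ± 493 (n = 4) in APP-GFP and 19463 ± 10281 (n = 5) in APP-SOCS3 astrocytes. All 15 astrocyte markers examined were higher in WT-GFP astrocytes than in GFP- cells. All 15 microglial, 15 endothelial, 10 mural and 7 oligodendrocyte precursor markers were lower, but all of these lists had a summed level above 0 in every GFP+ sample. In bulk samples, fewer cells of a type and less RNA per cell cannot be told apart.

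S1P is made inside cells by phosphorylation of sphingosine, leaves them through transporters such as SPNS2, and acts on G protein-coupled receptors at the cell surface. It is removed by the lyase SGPL1 or by phosphatases. LPA is a related lipid with its own G protein-coupled receptors, and both lipids act on glia, neurons and brain vessels. In the brain, S1PR1 is known as an abundant receptor of astrocytes and endothelial cells, S1PR3 as a receptor of vascular cells and reactive astrocytes, and S1PR5 as a receptor of oligodendrocytes.

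SOCS3 acts on the JAK-STAT pathway, so the promoters of *S1pr3* and *S1pr2*, the receptors that were called in opposite directions in APP-SOCS3 astrocytes, and of *Sphk1*, the gene whose promoter held a STAT motif, are shown. The sequences are those of RefSeq on GRCm38.p6, from 250 bases before to 50 bases after the start site, for 9 of the 10 genes. *S1pr1* was not among them. For 7 genes the start site of a window was the start of the authors' entry. Capitals mark matches, on either strand, to the STAT motif TTCNNNGAA, the AP-1 motif TGANTCA, the GC box GGGCGG or the TATA box TATAAA.
S1pr3 promoter, chr13:51408368-51408667, + strand: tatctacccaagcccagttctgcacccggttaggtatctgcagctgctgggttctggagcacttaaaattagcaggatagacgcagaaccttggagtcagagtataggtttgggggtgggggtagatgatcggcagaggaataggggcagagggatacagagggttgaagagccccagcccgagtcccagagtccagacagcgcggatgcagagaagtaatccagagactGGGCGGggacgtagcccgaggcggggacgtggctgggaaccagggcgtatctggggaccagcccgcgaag
S1pr2 promoter, chr9:20976744-20977043, - strand: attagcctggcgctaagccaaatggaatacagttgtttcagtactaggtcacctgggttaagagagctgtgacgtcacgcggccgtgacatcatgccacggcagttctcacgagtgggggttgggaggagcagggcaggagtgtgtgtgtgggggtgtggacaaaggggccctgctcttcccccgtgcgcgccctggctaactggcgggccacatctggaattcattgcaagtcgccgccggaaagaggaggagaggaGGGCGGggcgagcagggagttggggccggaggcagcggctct
Sphk1 promoter, chr11:116531661-116531960, + strand: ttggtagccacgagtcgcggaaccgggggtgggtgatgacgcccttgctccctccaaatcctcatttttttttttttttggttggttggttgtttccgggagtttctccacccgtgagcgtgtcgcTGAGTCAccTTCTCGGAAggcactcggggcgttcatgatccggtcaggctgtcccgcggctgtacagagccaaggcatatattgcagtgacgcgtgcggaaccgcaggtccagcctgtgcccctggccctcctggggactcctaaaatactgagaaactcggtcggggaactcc
The *S1pr3* and *S1pr2* windows each held 1 GC box and neither a STAT nor an AP-1 match. The *Sphk1* window held 1 match to the AP-1 motif and 1 to the STAT motif, which do not overlap. Of the 7 windows whose start site was the start of the authors' entry, 1 had a STAT match, 1 an AP-1 match, 5 a GC box and 0 a TATA box. Of all 32851 promoter windows of this length, 8.30% had a STAT match, 7.81% an AP-1 match, 35.7% a GC box and 13.6% a TATA box. A match describes letters only, and its absence from these windows says nothing about binding by a factor.

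*S1pr1* was by far the most abundant of the 10 genes in astrocytes. This receptor couples to inhibitory G proteins and is the target of the drug fingolimod in lymphocytes, and its gene is on chromosome 3 (115710433 to 115715055, mm10, - strand). Levels ranged from 53007 to 117984 with a median of 90340 in the 7 WT-GFP samples. They were 100998, 61824, 60165 and 91562 in APP-GFP samples and 81289, 121592, 75864, 82874 and 89433 in APP-SOCS3 samples. The GFP- samples had 17421, 12634 and 13718. Each astrocyte sample lay above each GFP- sample, and the 3 astrocyte groups overlapped. The level of *S1pr1* was 5.80-fold higher in WT-GFP astrocytes than in GFP- cells (log2 fold change 2.49, SE 0.252, limma, adjusted *p* = 2.87e-05; exact permutation test, *p* = 0.0167, the smallest possible). It took 0.201% to 0.494% of all reads on genes in WT-GFP samples and 0.0612% to 0.0817% in GFP- samples.

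Per kilobase of exon, *S1pr1* stood at rank 17 of 18854 protein-coding genes in WT-GFP, 18 in APP-GFP and 16 in APP-SOCS3 astrocytes, and at rank 136 in GFP- cells. Among astrocyte groups, its log2 fold change was -0.09 (95% interval -0.60 to 0.42) between APP-GFP and WT-GFP, 0.22 (-0.21 to 0.64) between APP-SOCS3 and APP-GFP, and 0.13 (-0.31 to 0.56) between APP-SOCS3 and WT-GFP. None of these differences was called. The intervals leave room for changes of *S1pr1* within those bounds in either direction.

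**Figure D1:**
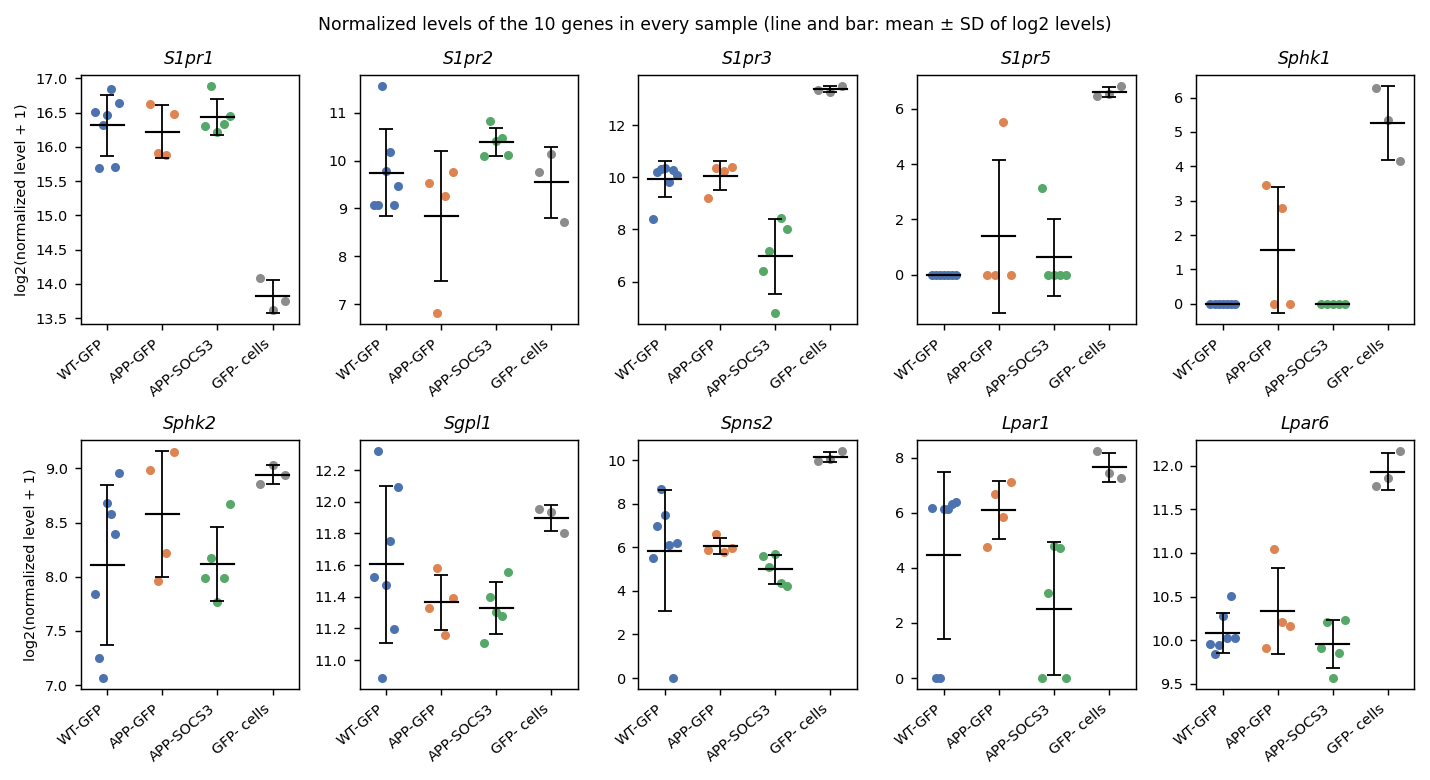
Levels of the 10 genes on the log2(normalized level + 1) scale (y axis) in each sample of the 4 groups (x axis), with the mean ± SD of log2 levels in black. *S1pr1* was higher in every astrocyte sample than in GFP- cells, *S1pr3* was lower in each APP-SOCS3 sample than in each APP-GFP sample, and *S1pr5* and *Sphk1* were at 0 in all 7 WT-GFP samples. Axes differ between genes and do not all start at 0.

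The makeup of the transcripts of these 4 S1P receptors differed between astrocytes and GFP- cells. *S1pr4*, which encodes another S1P receptor, was not in the sum. On the scale of levels per kilobase, *S1pr1* made up 97.6% to 99.5% of the sum in WT-GFP samples, 98.2% to 99.3% among APP-GFP and 99.1% to 99.4% among APP-SOCS3 samples. In GFP- cells it made up 62.5% to 69.9%, and *S1pr3* took 28.3% to 36.2%. The share of *S1pr3* was 0.247% to 1.54% in WT-GFP samples, 0.401% to 1.41% among APP-GFP and 0.0241% to 0.280% among APP-SOCS3 samples. The share of *S1pr2* was 0.218% to 1.38%, 0.0682% to 0.381% and 0.471% to 0.684% in the same order. These shares are given as descriptions, without a test. The level of *S1pr2* per level of *S1pr3*, not divided by length, was between 0.0863 and 2.38 in the 11 samples with GFP alone and between 4.17 and 50.7 in the 5 APP-SOCS3 samples.

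**Figure D2:**
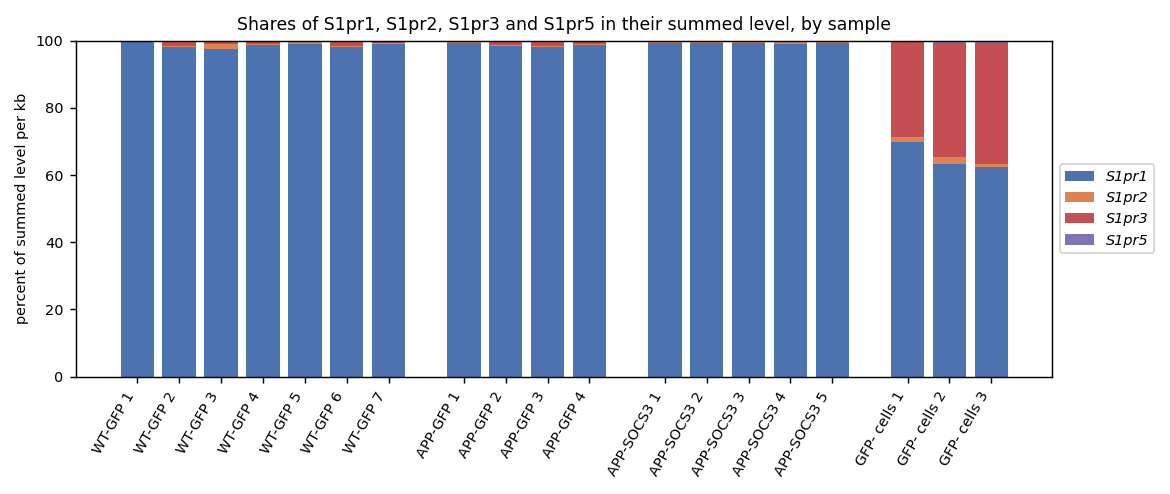
Share of *S1pr1*, *S1pr2*, *S1pr3* and *S1pr5* in their summed level per kilobase, without *S1pr4* (y axis, percent) in each of the 19 samples (x axis). *S1pr1* filled at least 97.6% of each bar in GFP+ astrocytes, while *S1pr3* filled 28.3% to 36.2% in the 3 GFP- samples.

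*S1pr3* was lower in APP-SOCS3 astrocytes than in both groups of astrocytes with GFP alone. It encodes a receptor that couples to several classes of G protein. Its gene is on chromosome 13 (51408618 to 51422797, mm10, + strand) and shares 45 exon bases with *Gm32834* on the opposite strand. Levels ranged from 341 to 1300 with a median of 1191 in WT-GFP samples. They were 597, 1297, 1218 and 1362 in APP-GFP samples. In APP-SOCS3 samples they were 83.9, 144, 27.0, 343 and 258. Each APP-SOCS3 sample lay below each APP-GFP sample, and 4 of 5 lay below each WT-GFP sample. The exception was APP-SOCS3 replicate 4, whose level of 343 was just above WT-GFP replicate 1, the lowest of its group at 341.

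The mean level of *S1pr3* was 6.53-fold lower in APP-SOCS3 than in APP-GFP astrocytes (log2 fold change -3.09, SE 0.647, limma, *p* = 0.000565, adjusted *p* = 0.403; exact permutation test, *p* = 0.0159, the smallest possible). Against WT-GFP it was 6.10-fold lower (log2 fold change -2.95, SE 0.555, *p* = 0.000109, adjusted *p* = 0.103; exact permutation test, *p* = 0.00505). Both comparisons use the same APP-SOCS3 samples. APP-GFP and WT-GFP samples overlapped, with a log2 fold change of 0.14 (95% interval -0.68 to 0.95). With DESeq2 on whole reads, the adjusted *p* of *S1pr3* was 0.00168 against APP-GFP and 6.58e-05 against WT-GFP, and with edgeR it was 0.495 and 0.279. Over all alternatives it ranged from 0.00168 to 0.817 and from 6.58e-05 to 0.715.

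GFP- cells had more *S1pr3* than any astrocyte sample, with levels of 10344, 9991 and 11647. WT-GFP astrocytes were 10.2-fold lower (log2 fold change -3.45, SE 0.379, limma, adjusted *p* = 5.17e-05; exact permutation test, *p* = 0.0167, the smallest possible). As a percent of the mean of GFP- cells, *S1pr3* was at 3.20% to 12.2% in WT-GFP samples. The range was 5.60% to 12.8% for APP-GFP and 0.253% to 3.22% for APP-SOCS3 samples.

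Markers of other cells moved in the same direction as *S1pr3*. In APP-SOCS3 against APP-GFP astrocytes, 13 of 15 endothelial, 4 of 10 mural and 15 of 15 microglial markers were called lower, with median log2 fold changes of -2.69, -2.05 and -2.03. Against WT-GFP, 10 of 15, 4 of 10 and 12 of 15 were called lower. The summed endothelial level was 4.61% to 23.8% of the GFP- mean in WT-GFP samples, 6.67% to 21.1% among APP-GFP and 3.56% to 6.10% among APP-SOCS3 samples. The summed mural level was 2.29% to 23.2%, 2.85% to 14.4% and 1.58% to 2.77% in the same order. The summed microglial level was 6.92% to 25.1%, 9.75% to 53.0% and 5.07% to 9.20%. No gene of these 3 lists was at 0 in every sample of a group.

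In single samples, *S1pr3* and these lists stood together only in part. WT-GFP replicate 1 had the lowest *S1pr3* of its group, at 3.20% of the GFP- mean, and also the lowest endothelial (4.61%) and mural (2.29%) sums. WT-GFP replicate 2 had the highest endothelial (23.8%) and mural (23.2%) sums, and its *S1pr3* was at 11.2%. APP-GFP replicate 4, in contrast, had the highest *S1pr3* of all GFP+ samples (12.8%) with the lowest endothelial sum of its group (6.67%) and a mural sum of 4.08%. The part of other cells in the level of *S1pr3* was not tested.

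**Figure D3:**
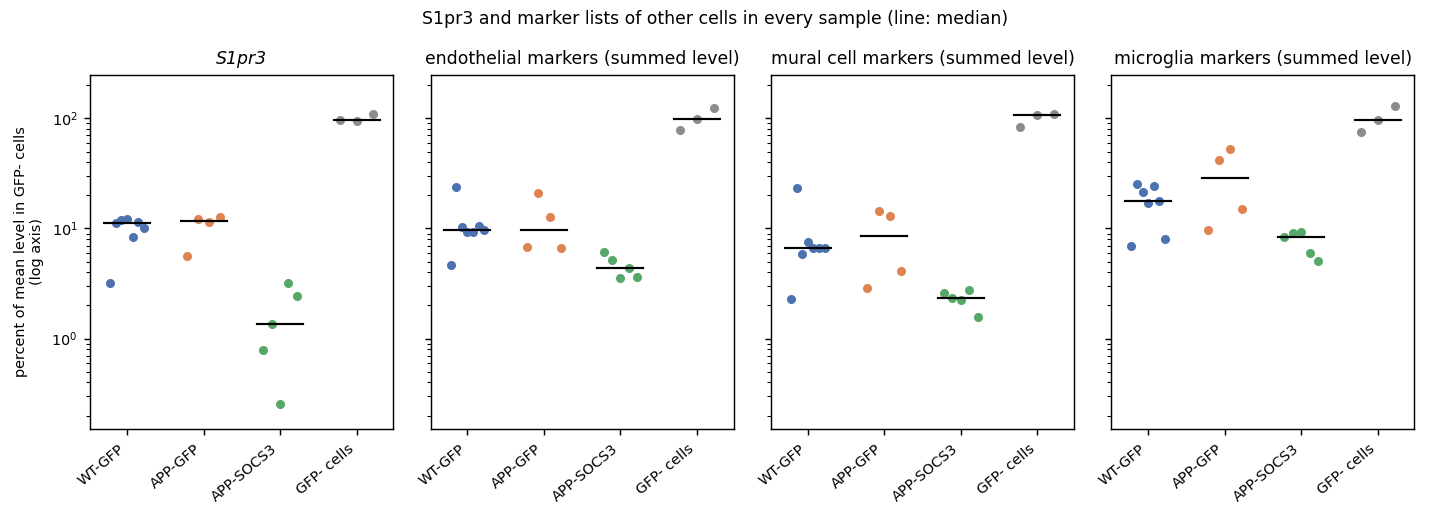
Level of *S1pr3* and summed levels of endothelial, mural and microglial markers in each sample, as a percent of the mean level in GFP- cells (y axis, log scale), by group (x axis), with the median as a line. *S1pr3* in APP-SOCS3 samples (0.253% to 3.22%) lay below the APP-GFP samples (5.60% to 12.8%). The summed endothelial, mural and microglial levels in APP-SOCS3 samples were below each APP-GFP sample as well.

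*S1pr2*, a G protein-coupled receptor of S1P, was higher in APP-SOCS3 than in APP-GFP astrocytes. The gene is on chromosome 9 (20965952 to 20976793, mm10, - strand). Levels ranged from 536 to 3026 with a median of 709 in WT-GFP samples. They were 744, 112, 610 and 862 in APP-GFP samples and 1097, 1820, 1368, 1430 and 1111 in APP-SOCS3 samples. WT-GFP replicate 3, with 3026, lay above each APP-SOCS3 sample, and WT-GFP replicate 5, with 1160, above APP-SOCS3 replicates 1 and 5. Each APP-SOCS3 sample lay above each APP-GFP sample. The mean level was 2.35-fold higher than in APP-GFP (log2 fold change 1.55, SE 0.514, limma, *p* = 0.0117, adjusted *p* = 0.646; exact permutation test, *p* = 0.0159, the smallest possible). Without APP-GFP replicate 2, the sample at 112, the log2 fold change was 0.87 and was still called. At least 1 read was found on 16471 entries in that sample and on 15575 in WT-GFP replicate 3, the lowest numbers of all samples. APP-SOCS3 samples had 22050 to 26757. The part of this difference in the levels of *S1pr2* was not tested.

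The difference of *S1pr2* between APP-SOCS3 and WT-GFP was not called (log2 fold change 0.64, 95% interval -0.18 to 1.47), but it was called without WT-GFP replicate 3, at 0.95. GFP- cells had 869 and 1133, within the range of WT-GFP astrocytes, and 422, below each of them. The log2 fold change between WT-GFP astrocytes and GFP- cells was 0.20 (95% interval -0.99 to 1.39).

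*S1pr5* was not detected in WT-GFP astrocytes. Its position is chromosome 9 (21242917 to 21248443, mm10, - strand). All 7 WT-GFP samples had 0 reads, which allows a level of up to 3.04 on average (3 reads, counting error only). In APP-GFP astrocytes replicate 3 had 45.5 (46 reads) and the other samples 0. In APP-SOCS3 astrocytes replicate 1 had 7.73 (7 reads) and the other samples 0. GFP- cells had 87.1, 92.3 and 113, at least 32.1-fold more than WT-GFP astrocytes by the floor of 3 reads (limma, adjusted *p* = 7.05e-06; exact permutation test, *p* = 0.0167, the smallest possible). Among astrocyte groups, where at most 1 sample of a group had any read, limma tested *S1pr5* in both comparisons with APP-GFP and called neither. The fitted values enter the counts of genes tested, and no fold change is read from them. Oligodendrocyte markers, by contrast, had a summed level of 5053 to 7565 in WT-GFP samples against 2629 to 3423 among GFP- cells, with *Opalin* at 0 in each GFP- sample. Whether oligodendrocytes had a part in the *S1pr5* levels was not tested.

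The kinases differed in their detection. *Sphk1*, the kinase known to be induced by growth factors and cytokines, lies on chromosome 11 (116531911 to 116536675, mm10, + strand). It had 0 reads in all 7 WT-GFP and all 5 APP-SOCS3 samples. In APP-GFP astrocytes replicate 1 had 9.96 (11 reads) and replicate 3 had 5.94 (6 reads), and the other samples had 0. GFP- cells had 77.3, 40.1 and 16.8, at least 14.7-fold more than WT-GFP astrocytes by the floor of 3 reads (limma, adjusted *p* = 1.93e-05; exact permutation test, *p* = 0.0167, the smallest possible). *Sphk1* was under the minimum mean level of 10 in the 3 astrocyte groups and was not tested among them.

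*Sphk2*, the kinase of the nucleus and mitochondria, was detected in every sample. Its position is chromosome 7 (45709463 to 45718002, mm10, - strand) and shares 539 exon bases with *Dbp* and 373 with *Rpl18*, both on the opposite strand. The use of strand in counting is not stated, so that reads of these genes may not be told apart. Levels ranged from 133 to 497 with a median of 335 in WT-GFP samples. They were 505, 249, 297 and 569 in APP-GFP samples and 253, 288, 217, 253 and 407 in APP-SOCS3 samples. GFP- cells had 463, 523 and 489, and 6 of 7 WT-GFP samples lay below them. The log2 fold change was -0.83 (95% interval -1.82 to 0.15) between WT-GFP astrocytes and GFP- cells and was not called, and the astrocyte groups overlapped. *Sphk1* made up 2.91% to 12.7% of the kinase level per kilobase in GFP- cells, 0% to 1.71% in APP-GFP and 0% in each WT-GFP and APP-SOCS3 sample.

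*Sgpl1*, the lyase that breaks down S1P irreversibly, was not called in any comparison. The gene is on chromosome 10 (61098644 to 61147684, mm10, - strand). Levels ranged from 1893 to 5112 with a median of 2943 in WT-GFP samples. They were 2569, 3065, 2288 and 2685 in APP-GFP, 2204, 2705, 2528, 2480 and 3014 in APP-SOCS3 and 3973, 3910 and 3571 in GFP- samples. All pairs of groups compared overlapped. The GFP- samples lay above each APP-GFP and APP-SOCS3 sample, pairs that were not compared by a test. The log2 fold change between APP-SOCS3 and APP-GFP was -0.04 (95% interval -0.35 to 0.28).

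*Spns2*, which carries S1P out of cells and is known from endothelium, was mainly a transcript of GFP- cells. It lies on chromosome 11 (72451638 to 72489964, mm10, - strand) and shares 131 exon bases with *Mybbp1a* on the opposite strand. Levels in WT-GFP samples ranged from 0 to 416 with a median of 72.2. They were 57.9, 97.7, 53.4 and 61.9 in APP-GFP and 47.5, 33.5, 50.0, 19.6 and 17.6 in APP-SOCS3 samples. GFP- cells had 1009, 1050 and 1366, above every astrocyte sample. The mean level was 8.83-fold lower in WT-GFP astrocytes (log2 fold change -4.29, SE 1.47, limma, adjusted *p* = 0.0459; exact permutation test, *p* = 0.0167, the smallest possible, and 0.0333 by absolute differences). Without WT-GFP replicate 6, which had 0 reads, the log2 fold change was -3.31. Over the alternatives, the adjusted *p* ranged from 0.00442 to 0.147.

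Each APP-SOCS3 sample had less *Spns2* than each APP-GFP sample, with levels 2.01-fold lower on average (exact permutation test, *p* = 0.0159, the smallest possible, and 0.0317 by absolute differences). The fit across all genes did not call this difference (log2 fold change -1.07, SE 0.610, limma, adjusted *p* = 0.816). The endothelial, mural and microglial sums were also lower in each APP-SOCS3 sample than in each APP-GFP sample. Their part in the level of *Spns2* was not tested. WT-GFP and APP-SOCS3 samples overlapped.

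*Lpar1* was near the detection limit in astrocytes. This LPA receptor is known from oligodendrocytes and neural progenitors and lies on chromosome 4 (58435252 to 58553525, mm10, - strand). In WT-GFP samples, 2 were at 0, the median was 69.8 and the highest 82.3. Levels were 26.3, 102, 56.4 and 139 in APP-GFP samples and 0, 7.44, 27.0, 25.5 and 0 in APP-SOCS3 samples. All but APP-SOCS3 replicate 3 lay below each APP-GFP sample. The mean level was 6.75-fold lower in APP-SOCS3 than in APP-GFP (log2 fold change -3.58, SE 1.26, limma, *p* = 0.0156, adjusted *p* = 0.647; exact permutation test, *p* = 0.0317, and 0.0397 by absolute differences). The call was lost with edgeR on whole reads (unadjusted *p* = 0.0673).

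GFP- cells had *Lpar1* levels of 302, 172 and 154, above each WT-GFP sample, but the fit did not call this difference (log2 fold change -3.20, 95% interval -6.88 to 0.48). The exact permutation test gave *p* = 0.0167, the smallest possible, as 2 times the smaller tail and *p* = 0.075 by absolute differences. With a pseudocount of 10 in place of 1 the log2 fold change was -2.20 and was called (limma, unadjusted *p* = 0.0267). In APP-SOCS3 against APP-GFP, 3 of 7 oligodendrocyte precursor and 1 of 9 oligodendrocyte markers tested were called lower. The summed precursor level was 2.22% to 6.12% of the GFP- mean in WT-GFP samples, 1.87% to 7.61% among APP-GFP and 0.493% to 4.27% among APP-SOCS3 samples, and its part in the level of *Lpar1* was not tested.

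*Lpar6*, an LPA receptor of the purinergic-like family, was lower in astrocytes than in GFP- cells. It lies on chromosome 14 (73237891 to 73243294, mm10, + strand), in 1 exon block that shares 408 exon bases with *Rb1* on the opposite strand. Levels ranged from 920 to 1451 with a median of 1043 in WT-GFP samples. They were 960, 2113, 1185 and 1148 in APP-GFP and 964, 1183, 758, 923 and 1198 in APP-SOCS3 samples. GFP- cells had 3475, 3710 and 4588, above each astrocyte sample. The mean level was 3.57-fold lower in WT-GFP astrocytes (log2 fold change -1.84, SE 0.193, limma, adjusted *p* = 3.81e-05; exact permutation test, *p* = 0.0167, the smallest possible). The astrocyte groups overlapped, with a log2 fold change of -0.38 (95% interval -0.92 to 0.16) between APP-SOCS3 and APP-GFP. Microglial markers, 15 of 15 of which were lower in WT-GFP astrocytes than in GFP- cells, had their highest sums of all GFP+ samples in APP-GFP replicates 3 (53.0% of the GFP- mean) and 2 (42.3%). *Lpar6* had its highest astrocyte level in APP-GFP replicate 2, which also had the highest endothelial (21.1%), mural (14.4%) and oligodendrocyte precursor (7.61%) sums of its group. The part of these cells in the level of *Lpar6* was not tested.

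On levels per kilobase, the order in WT-GFP astrocytes was *S1pr1* with 27799 ± 7932 (SD, n = 7), *Sgpl1* with 534 ± 184, *S1pr3* with 234 ± 76.1, *Lpar6* with 203 ± 34.2, *S1pr2* with 133 ± 113, *Sphk2* with 73.3 ± 33.1, *Spns2* with 31.7 ± 34.0 and *Lpar1* with 12.4 ± 8.56. *S1pr5* and *Sphk1* were at 0. From *S1pr3* down to *Lpar1*, the intervals of mean ± SD of each pair of neighbours in this order overlapped, while *S1pr1* and *Sgpl1* stood apart from each other and from *S1pr3*. In GFP- cells the order was *S1pr1* with 4790 ± 824 (SD, n = 3), *S1pr3* with 2389 ± 195, *Lpar6* with 727 ± 109, *Sgpl1* with 622 ± 35.2, *Spns2* with 280 ± 47.9, *Sphk2* with 118 ± 7.29, *S1pr2* with 101 ± 45.0, *Lpar1* with 48.8 ± 18.8, *S1pr5* with 39.0 ± 5.51 and *Sphk1* with 9.37 ± 6.39. The intervals overlapped there between *Lpar6* and *Sgpl1*, *Sphk2* and *S1pr2*, *S1pr2* and *Lpar1*, and *Lpar1* and *S1pr5*, and not between other neighbours. In APP-SOCS3 astrocytes *S1pr2* (171 ± 37.0, n = 5) stood above *S1pr3* (38.4 ± 28.8). The order was the reverse in APP-GFP astrocytes (73.0 ± 41.4 and 251 ± 78.9, n = 4). The WT-GFP means per kilobase were also in the reverse order, but their intervals overlapped. Not divided by length, the WT-GFP means were 1056 for *S1pr2* and 1045 for *S1pr3*, so that the order there depended on the lengths used. The GENCODE gene of *S1pr2* reaches down to 20962361 on chromosome 9, while the authors' entry stops at 20965952.

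Counted over the genes and read against all genes tested, the comparison of WT-GFP astrocytes with GFP- cells called 1 of 10 higher (*S1pr1*) and 5 lower (*S1pr3*, *S1pr5*, *Sphk1*, *Spns2* and *Lpar6*). Of all 26709 genes tested there, 9.25% were called higher and 33.5% lower. All 6 also had an adjusted *p* under 0.05, as did 31.9% of all genes, and 7 of 10 had groups that did not overlap, as did 34.8%. The median log2 fold change of the 10 genes was -2.52, and that of all genes -1.31. On whole reads these medians were -1.62 and -0.37 with edgeR and -1.86 and -0.67 with DESeq2.

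Among astrocyte groups, between 0 and 3 of the 10 genes were called in each comparison. In APP-GFP against WT-GFP, 0 of 9 tested were called by limma (0 at an unadjusted *p* under 0.05, 1 with edgeR and 0 with DESeq2), while 1.66% of 22969 genes were called higher and 0.570% lower. No groups of these 9 were apart, against 0.313% of all genes, and 0 had an adjusted *p* under 0.05, against 0.00435%. In APP-SOCS3 against APP-GFP, 1 of 9 was called higher (*S1pr2*) and 2 lower (*S1pr3* and *Lpar1*), against 2.33% and 3.37% of 22844 genes. *S1pr2*, *S1pr3* and *Spns2* had groups that did not overlap, as did 2.01% of all genes, and 0 of 9 had an adjusted *p* under 0.05 with limma, as did 0.00438%. The median log2 fold change was -0.46 over the 9 genes and 0.08 over all genes.

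In APP-SOCS3 against WT-GFP, 1 of 8 tested was called lower (*S1pr3*) and 0 higher, against 2.02% and 3.19% of 22958 genes. No groups of these 8 were apart, against 0.566%, and 0 had an adjusted *p* under 0.05 with limma, against 0.0305%. The 3 comparisons among astrocyte groups share samples in pairs and are not independent of each other.

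**Figure D4:**
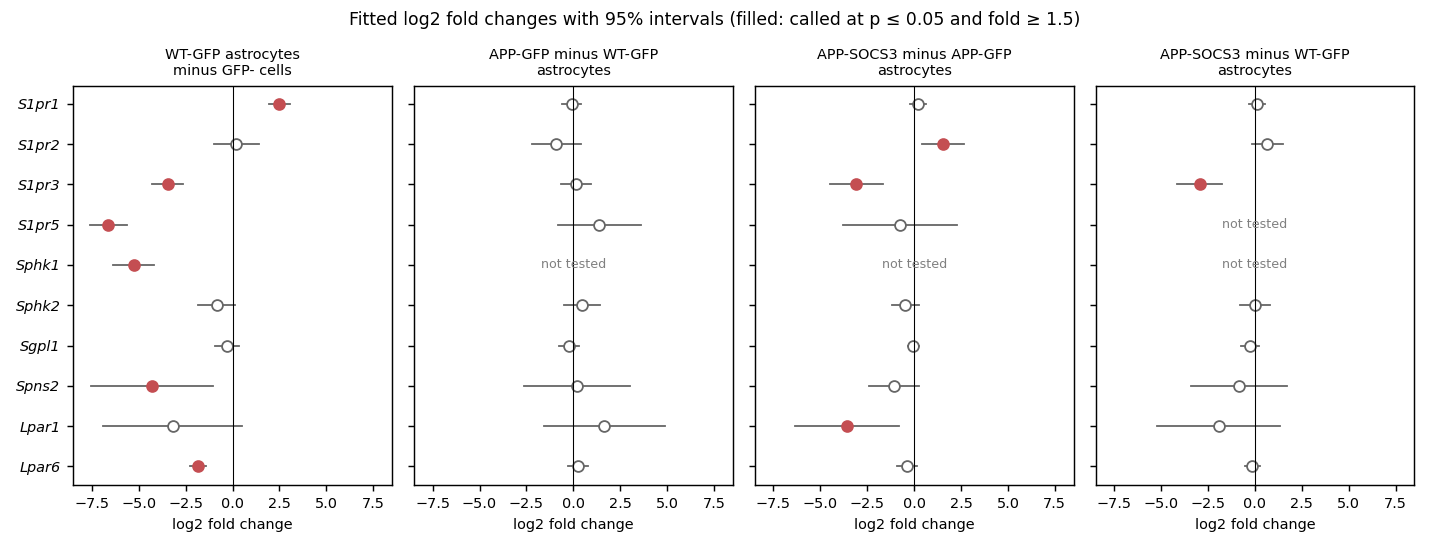
Log2 fold changes (x axis) with 95% intervals, by gene (y axis), for the 10, 9, 9 and 8 genes tested in the 4 comparisons from left to right; filled points were called. *Sphk1* was not tested among astrocyte groups, nor *S1pr5* between APP-SOCS3 and WT-GFP. Most genes lie left of 0 in astrocytes against GFP- cells, and *S1pr3* lies left of 0 in both comparisons of APP-SOCS3 astrocytes.

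The other genes of the pathway were described with 6 lists of 50 genes. In WT-GFP astrocytes against GFP- cells, 8 of 47 tested were called higher and 18 lower, against 9.25% and 33.5% of all genes tested. Of the other receptors, 1 of 4 tested was higher and 2 were lower. *Lpar4* had 1009 ± 223 (SD, n = 7) in WT-GFP astrocytes and 394 ± 39.7 (n = 3) in GFP- cells (limma, adjusted *p* = 0.0019), while *S1pr4*, a receptor of leukocytes, had 2.32 ± 3.07 and 204 ± 80.1 (adjusted *p* = 0.000431). *Lpar5* had 18.8 ± 19.4 and 105 ± 78.5 (limma, adjusted *p* = 0.102).

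Of 9 genes of LPA production and breakdown, 1 was higher and 4 lower. *Plpp3*, a phosphatase that removes phosphate from extracellular LPA and S1P, had 54900 ± 9266 (SD, n = 7) in WT-GFP astrocytes and 6939 ± 4975 (n = 3) in GFP- cells (log2 fold change 3.21, limma, adjusted *p* = 3.97e-05). *Pla1a* had 34.0 ± 45.3 and 1061 ± 179. *Enpp2*, which encodes autotaxin, the main source of extracellular LPA, was called lower, but its WT-GFP levels ran from 20.4 to 78271 and overlapped GFP- cells (59800 to 160130).

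Of the S1P phosphatases and other transporters, *Sgpp2* was lower in WT-GFP astrocytes than in GFP- cells (log2 fold change -3.27, limma, adjusted *p* = 0.000778). Of the ceramidases, which release sphingosine from ceramide, *Asah1* was higher (log2 fold change 0.63, adjusted *p* = 0.0973), and *Acer2* (-5.40) and *Asah2* (-3.46) were lower. In ceramide synthesis 3 of 14 genes were higher and 4 lower. *Cers1*, a ceramide synthase, had a log2 fold change of 2.84 and *Degs1*, a desaturase, 1.10, against -3.97 for *Cers6* and -3.04 for *Degs2*. In sphingomyelin and glycosphingolipid turnover 2 of 12 were higher and 5 lower. The sphingomyelinases *Smpd2* (2.48) and *Smpd1* (1.21) were higher, and *Ugt8a* (-5.86) and *Sgms2* (-4.81) were lower.

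In APP-GFP against WT-GFP astrocytes, limma called 0 of 46 tested genes of these lists, while 1.66% of all genes were called higher and 0.57% lower. In APP-SOCS3 against APP-GFP, 0 of 47 were called higher and 3 lower, against 2.33% and 3.37% of all genes. *S1pr4* fell from 21.5 ± 25.6 (SD, n = 4) to 0.442 ± 0.987 (n = 5), *Acer2* from 242 ± 199 to 51.0 ± 51.1 and *Degs2* from 313 ± 280 to 75.7 ± 79.0, with overlap between the groups for each (limma, adjusted *p* = 0.758, 0.647 and 0.680). In APP-SOCS3 against WT-GFP, 2 of 46 were called lower, against 2.02% of all genes. *Sgpp2* had 4.11 ± 6.35 (n = 5) against 49.3 ± 19.5 (n = 7) without overlap (limma, adjusted *p* = 0.177), and *Degs2* 75.7 ± 79.0 against 406 ± 262 (adjusted *p* = 0.281). These 4 genes were all called lower in WT-GFP astrocytes than in GFP- cells as well, as were 33.5% of all genes.

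The genes whose log2 levels were most like those of a member were found over the 16 GFP+ samples, among 10236 genes, as a description. These samples share the normalization and the groups, so that a likeness can come from either. For *S1pr1* they were *Tm9sf2* (Pearson r = 0.968), *Wls* (0.959) and *Fyn* (0.950), and for *S1pr2* they were *Mfsd11* (0.920), *Gm16845* (0.904) and *Ptdss2* (0.901). For *S1pr3* they were *Slc6a6* (0.920), *Apbb2* (0.872) and *Tagln2* (0.862). All 3 of the latter had higher means in GFP- cells (5069, 3014 and 7646) than in WT-GFP astrocytes (288, 487 and 1076). Their lowest means were in APP-SOCS3 astrocytes (69.2, 193 and 238), which goes with their choice by likeness to *S1pr3* over these samples. For *Sphk2* the genes most alike were *Zfp335* (0.849), *Armc3* (0.846) and *Limk2* (0.843), and for *Sgpl1* *Unc13b* (0.811), *D630044L22Rik* (0.767) and *Zfp784* (0.761). For *Lpar6* they were *Morf4l2* (0.806), *Ceacam1* (0.776) and *Pon3* (0.768). Rank correlations (Spearman) of all these genes with their member ran from 0.512 (*Ceacam1*) to 0.962 (*Wls* and *Fyn*).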

How the data were processed

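The authors sequenced RNA of FACS-sorted cells in 19 samples, which the labels place in 4 groups. The authors mapped reads to mm10 with STAR 2.4.0, counted those on constitutive regions of FAST DB genes and normalized them with DESeq2. What they deposited is a signal per gene, i.e. read counts divided by a size factor per sample, and 0 columns had no sample. Whole reads were recovered from 100% of values (tolerance 0.01 reads). One read was worth 0.756 to 1.18 units of level. The use of strand in counting is not given in the sources used here.

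From these values, log2(level + 1) was fitted with limma 3.58.1 (R 4.3.3, trended prior variance). Each fit held only the samples being compared, had no covariate and covered genes whose mean level reached 10 in 1 of the groups. Intergenic background, on which the study filtered genes, was not used here. A call needed an unadjusted *p* ≤ 0.05 and a 1.5-fold difference, as in the methods of the study, and *p* values adjusted by Benjamini-Hochberg over all genes tested are given beside. Exact permutation tests (2-sided) of mean log2 levels were added for single genes. Their *p* was 2 times the smaller tail, a convention adopted after values under another one, the share of regroupings with an absolute difference at least as large, had been seen. Of 40 tests, the other convention gave a larger *p* in 11 and a smaller one in 26, and it is given beside each printed value that it enlarged. Intervals of fold changes are 95% intervals of the limma fit, and floors of 3 reads cover counting error only, since reads without molecular identifiers are not independent molecules. Levels per kilobase used the exon length of GENCODE M21, which is not the counted length. The fits were tested on simulated reads.

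The 10 genes, the 50 other genes of the pathway and the marker lists were chosen with earlier results of these data known. All 10 genes are named. Of the other pathway genes, those called among astrocyte groups are named, and in astrocytes against GFP- cells the 2 with the largest changes per list and direction. Genes alike to a member are the 3 with the highest Pearson r, among genes whose mean level reached 100 in GFP+ samples. Alternatives were other pseudocounts, minimum levels and scalings, all samples in one fit, edgeR 4.0.16 and DESeq2 1.42.0 on whole reads, other thresholds, the replicate number as a block and leaving out each sample. With edgeR, 8588, 659, 1323 and 1203 genes were called in WT-GFP astrocytes against GFP- cells, APP-GFP against WT-GFP, APP-SOCS3 against APP-GFP and APP-SOCS3 against WT-GFP.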

Additional observations from a re-analysis of the deposited data

Results flagged for a closer look

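Of 27 groups of 4 to 7 samples with values above 0, 4 had a sample far from the others by Dixon's test. Chance flags about 1 in 20 groups of normally distributed values. A group with a single sample above 0 is flagged by construction, so that this rate does not apply to it. *S1pr2* had a level of 3026 in WT-GFP replicate 3, where the next sample had 1160. *S1pr3* had 340.9 in WT-GFP replicate 1, where the next had 894. *S1pr5* had 45.51 in APP-GFP replicate 3 and 7.728 in APP-SOCS3 replicate 1, and 0 in the other samples of both groups. These values are given without an explanation.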

How the results depend on the processing

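Of 36 fold changes of single genes, recomputed under 798 alternatives in all, 756 kept their direction and their side of the thresholds, 11 gained a call and 5 lost one, and 26 that were not called changed sign. No called fold change changed sign. Of the 10 genes, 6 were called in WT-GFP astrocytes against GFP- cells, and 6 to 7 when single samples were left out. In APP-GFP against WT-GFP 0 were called, and 1 without a minimum level (*Sphk1*) or with edgeR (*S1pr5*). In APP-SOCS3 against APP-GFP 3 were called, 3 to 4 when single samples were left out, and 0 with the adjusted *p*. In APP-SOCS3 against WT-GFP 1 was called, and 2 with scaling to upper quartiles or with DESeq2, 0 with the adjusted *p*, and 1 to 2 when single samples were left out (2 without WT-GFP replicate 3 or 6). The cause of these changes was not tested.

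Not every pair of same-numbered samples deviated together from their group means (r from -0.177 to 0.242 over 12952 genes in the 4 comparisons). Differently numbered pairs were not examined, so these values cannot tell whether replicate numbers pair the samples. With a replicate block, 8, 0, 3 and 2 of the 10 genes were called in the 4 comparisons, against 6, 0, 3 and 1. Over all genes, calls went from 11419 to 6709, 513 to 123, 1301 to 650 and 1197 to 441 with a minimum level of 100. In APP-GFP against WT-GFP they were 817 without a minimum and 991 with all 19 samples in one fit. With the adjusted *p*, 1, 1 and 7 genes were called in the 3 comparisons among astrocytes. Scaling to upper quartiles moved the median log2 fold change over the whole table from -1.31 to -1.74, 0.09 to 0.27, 0.08 to 0.24 and 0.19 to 0.52, and the genes called higher and lower were then 416 and 38 in APP-GFP against WT-GFP (382 and 131 before) and 1330 and 258 in APP-SOCS3 against WT-GFP (733 and 464 before). *S1pr3* was called lower in both comparisons of APP-SOCS3 astrocytes under each scaling. The levels of *S1pr5*, *Sphk1* and *Lpar1* rest on at most 159 reads in each astrocyte sample, and the part of depth in this was not tested. Of 40 exact permutation tests, 1 changed its side of 0.05 with absolute differences in place of 2 times the smaller tail, that of *Lpar1* in WT-GFP astrocytes against GFP- cells (*p* = 0.0167 to 0.075), an alternative added after seeing the data. Genes called higher and lower were 3323 and 5265 with edgeR and 3173 and 5784 with DESeq2 in WT-GFP astrocytes against GFP- cells (2471 and 8948 with limma), 412 and 247, and 205 and 325, in APP-GFP against WT-GFP, 398 and 925, and 493 and 947, in APP-SOCS3 against APP-GFP (532 and 769 with limma), and 441 and 762, and 340 and 824, in APP-SOCS3 against WT-GFP, where limma called more genes higher than lower.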
